A study of Homo sapiens with 9 samples.

Results

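The genes described here are 37 genes of the lysosome, its proton pump and autophagy, in human retinoblastoma cells given gold nanoparticles. They were chosen by name, because particles taken up by cells end in lysosomes, but with earlier results of these data known. They were measured by 127 probe sets annotated to 1 of these symbols each, of 49293 probe sets and 18132 genes in all. They comprise 5 genes of the membrane sector (V0) and 8 of the catalytic sector (V1) of the vacuolar ATPase, 5 genes of lysosomal membrane proteins, 7 of hydrolases and 12 of autophagy. Y79 is an established line grown from a human retinoblastoma, and it was kept in RPMI medium. The 9 Affymetrix arrays were 3 of untreated cells (Control), 3 of cells given bare gold nanoparticles (GNPs) and 3 of cells given gold nanoparticles that carry a peptide of human double minute 2 (GNPs-HDM2), here called the conjugate. The treated samples' source labels spell the line Y97, while their cell line field reads Y79. Dose, exposure time and the culture behind each array are unknown here, and no array of the peptide without gold was analysed here. The spread that the p-values rest on is thus that among these arrays, and it may be technical.

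A value is the deposited number of a gene on an array, taken as log2 and averaged over the probe sets of the gene. It is set against a baseline that each probe set has, so it gives no level, and genes are compared only by their differences between groups. A difference is on the log2 scale, where 1 is a doubling, and its error is the standard error (SE) of the limma fit over all 9 arrays. Genes are said to rise or fall where the Benjamini-Hochberg adjusted p over all 18132 genes was under 0.05. The cells' identity could be checked only through a rough class of baseline brightness (dim, middle or bright) that the stored digits leave. Of 14 probe sets of 8 photoreceptor and retinoblastoma markers 10 were bright and none dim. Of 24 probe sets of fibroblast markers and 20 of blood and macrophage markers none was bright. Of 13 probe sets of pigment epithelium markers 2 were bright, 5 middle and 6 dim. With the conjugate 4 of the 8 photoreceptor and retinoblastoma genes fell against untreated cells and none rose (limma). Of the other markers 3 of 6 fibroblast, 5 of 6 blood and macrophage and 5 of 5 pigment epithelium genes rose and none fell. Over all genes 25.1% fell and 33.1% rose. After centring within these brightness classes, described below, 3 photoreceptor and retinoblastoma genes were lower and 1 higher. Then 2 fibroblast, 3 blood and macrophage and 3 pigment epithelium genes were higher and none lower. Over all genes it was then 22.1% lower and 24.1% higher. The part of these shifts in the changes below was not tested.

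The lysosome is the acidic compartment in which cells break down what they take up and what autophagy delivers. Its acidity comes from the vacuolar ATPase, a rotary pump whose V1 sector splits ATP in the cytosol and whose V0 sector carries protons through the membrane. Autophagy encloses cytoplasm in a double membrane, under the control of the ULK1 kinase and the Beclin 1 lipid kinase complex, and coats that membrane with proteins of the LC3 and GABARAP family. The transcription factor TFEB binds a short E-box element in many of these genes and is known for raising their transcription when lysosomes are stressed.

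With the conjugate, most genes of the V1 pump sector fell while TFEB and ULK1 rose. Against untreated cells 20 of the 37 genes fell, 6 rose and 11 did not pass (limma). Over all genes, 25.1% were called lower and 33.1% higher in this comparison. The median change of the 37 genes was -0.64, against 0.25 over all genes. On the 3 conjugate arrays the median value of the 37 genes was -0.78, -1.06 and -0.21, and on the untreated arrays it lay between -0.09 and -0.05. The third conjugate array thus lay nearer to the untreated ones in most genes, as the plot of values by array shows. These are bulk samples, so fewer cells that express a gene and less of its RNA in each cell cannot be told apart.

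**Figure D1:**
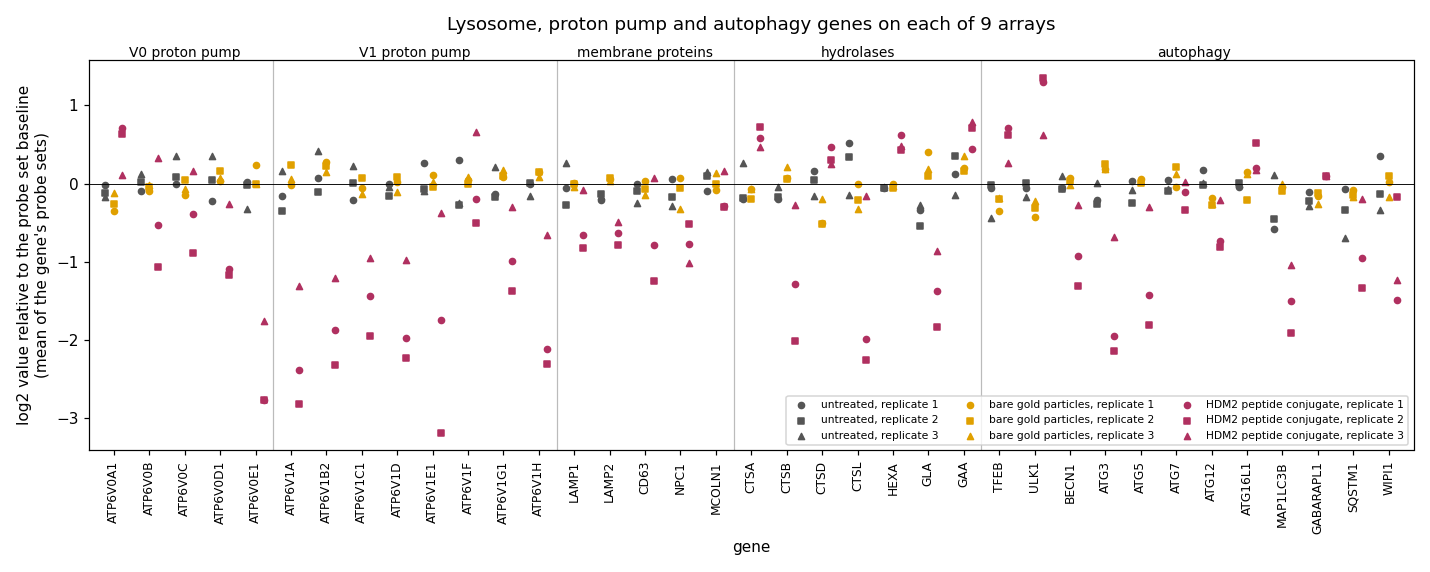
Log2 values relative to the probe set baseline (vertical axis) of the 37 genes (horizontal axis, grouped by role) on each array; colours are the groups and symbols the replicate numbers. The conjugate arrays lie lowest for ATP6V1E1 (-3.18 on replicate 2) and highest for ULK1 (1.35 on replicate 2), and bare particle and untreated arrays stay between -0.70 and 0.52.

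A shift of level moved with these falls. The conjugate arrays stood 1.68 (SD 0.30) above baseline in 18 probe sets of hybridization controls, which are added to every array in fixed amounts, against -0.38 (SD 0.05) on untreated arrays and -0.12 (SD 0.37) on bare particle arrays (n = 3 each). Bright probe sets of all genes had a median change of -1.003 with the conjugate, middle ones 0.19 and dim ones 0.48. Of the 127 probe sets described here 60 were bright, or 47.2% against 21.8% over all probe sets, 53 were middle, 8 dim and 6 not classed. Their median change was -1.07 when bright, -0.41 when middle and 0.36 when dim. Bright members thus lay close to bright probe sets in general, and middle members lay below middle probe sets in general. The part of this shift in the falls was not tested, and changes against untreated cells are therefore also given after the arrays were centred within the level classes (level centring).

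After level centring 13 of the 37 genes were lower and 9 higher, against 22.1% lower and 24.1% higher over all genes. All 13 had fallen as deposited, and 5 of the 9 had risen. The median of the 37 genes was then -0.05, against 0.08 over all genes, a scaling that moved the median of all genes from 0.25. Calls were also sensitive to single arrays. Of the 26 calls as deposited, 12 were made whichever 1 array was left out, and 11 of these 12 were also made after level centring. The 11 were ATP6V0E1, ATP6V1A, ATP6V1B2, ATP6V1C1, ATP6V1D, ATP6V1H, ATG3 and MAP1LC3B among the falls, and HEXA, TFEB and ULK1 among the rises. Other settings ended some of these 11 calls. Quantile normalization left only ATP6V0E1, ATP6V1B2, HEXA and ULK1 called among the 37 genes. Over all 18132 genes it called 1355 lower and 572 higher. Group weights ended the calls of HEXA and TFEB, the median of probe sets that of HEXA, and the more specific probe sets that of MAP1LC3B. Without conjugate replicate 1 the count was 11 falls and 5 rises.

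**Figure D2:**
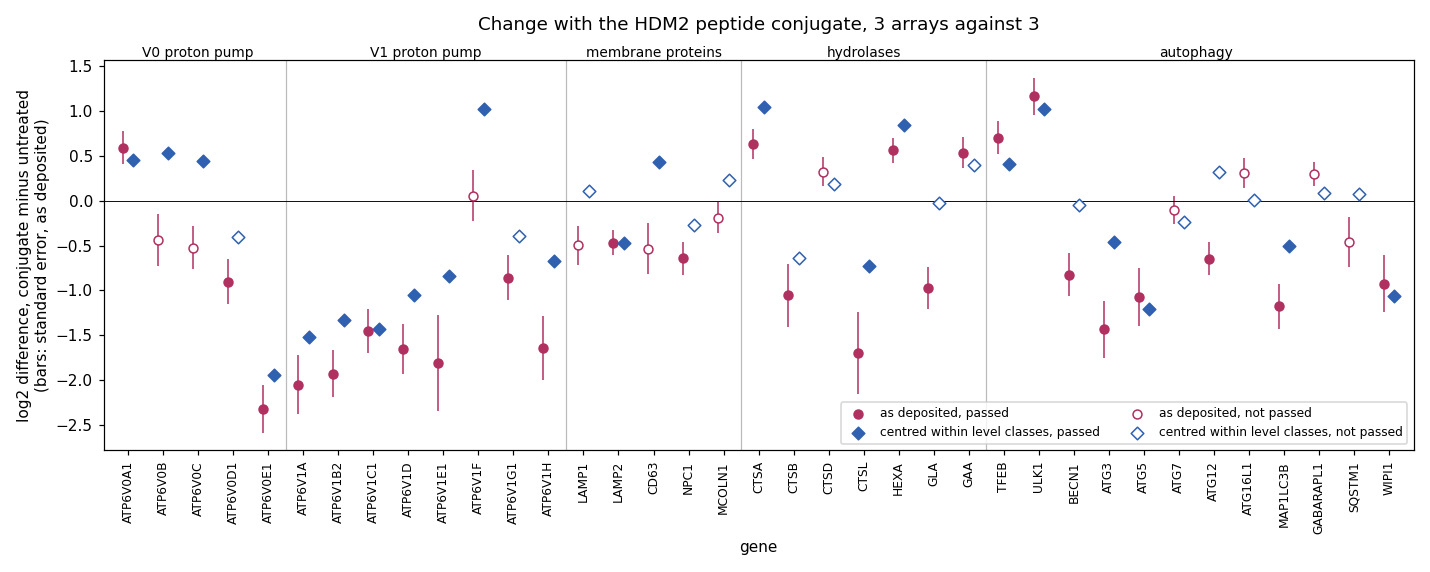
Log2 difference between conjugate and untreated arrays (vertical axis, 3 against 3) for each gene (horizontal axis); red circles are values as deposited with their standard error, blue diamonds values after level centring, and filled symbols passed limma at adjusted p under 0.05. ATP6V0E1 at -2.32 and -1.95 and ULK1 at 1.17 and 1.03 were called both ways, while ATP6V1F went from 0.06 to 1.03 and ATP6V0B turned from -0.44 to 0.53.

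The promoters of these genes were searched for the element that TFEB is known to bind. Since many of these genes are known to hold it, the shares below describe the promoters and not the changes. RefSeq promoter sequence (GRCh38.p14, 250 bases before to 50 after each gene start) was matched for 29 of the 37 genes. The core of the element, TCACGTGA, was found at 7 of 29 genes, against 1.18% of all 27305 genes in the table. The longer form, with a G before it and a C after it, was found at 3 of 29, against 0.421%, and the E-box CACGTG within both at 10 of 29, against 8.77%. The longer forms contain the shorter ones, and each reads the same on both strands. The 27305 genes of the promoter table are not limited to the 18132 measured here. Not matched were ATP6V0E1, ATP6V1A, ATP6V1B2, ATP6V1C1, ATP6V1H, LAMP2, CTSB and HEXA. The 40-base windows below show the element in members that fell, rose or did not pass. The longer form was the same in ATP6V1G1, MCOLN1 and GAA, which differ in outcome. A single window is shown per gene, with the longest form of its central copy in capitals and the gene's strand given. The promoters of MCOLN1, GAA, CTSA and ATG3 hold 2 copies of CACGTG each.
ATP6V1G1 (fell), chr9:114587694-114587733, plus strand: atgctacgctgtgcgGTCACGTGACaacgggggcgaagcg
ATP6V0D1 (fell), chr16:67481194-67481233, minus strand: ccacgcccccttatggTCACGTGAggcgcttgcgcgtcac
ATG3 (fell), chr3:112561935-112561974, minus strand: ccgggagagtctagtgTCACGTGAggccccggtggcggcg
MCOLN1 (not passed), chr19:7522593-7522632, plus strand: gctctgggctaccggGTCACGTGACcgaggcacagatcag
GAA (rose), chr17:80101488-80101527, plus strand: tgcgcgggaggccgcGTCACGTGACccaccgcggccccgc
CTSA (rose), chr20:45891293-45891332, plus strand: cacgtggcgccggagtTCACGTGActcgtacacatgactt
CTSD (not passed), chr11:1763952-1763991, minus strand: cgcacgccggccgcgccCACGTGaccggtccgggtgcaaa

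The promoter of LAMP1 held 6 copies of CACGTG, 2 of them within TCACGTGA, and it is shown whole for that reason (chr13:113296989-113297288, plus strand, all copies in capitals).
LAMP1 (not passed): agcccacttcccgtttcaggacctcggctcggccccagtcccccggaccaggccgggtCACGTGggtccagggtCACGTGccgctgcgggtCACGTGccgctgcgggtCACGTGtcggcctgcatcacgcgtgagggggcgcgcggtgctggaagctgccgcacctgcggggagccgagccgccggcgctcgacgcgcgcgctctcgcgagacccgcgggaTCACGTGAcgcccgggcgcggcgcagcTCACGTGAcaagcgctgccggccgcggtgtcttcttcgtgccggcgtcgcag

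Of the 10 genes with CACGTG, 3 fell, 2 rose and 5 did not pass with the conjugate, with a median change of -0.47. Of the 19 matched genes without it, 10 fell, 3 rose and 6 did not pass, with a median of -0.64. ULK1 and TFEB, which rose, were among those without it. The genes not matched are in neither count, and all of them fell except HEXA, which rose (0.56). They include the deepest falls described here, ATP6V0E1 (-2.32), ATP6V1A (-2.05) and ATP6V1B2 (-1.93). The medians above therefore leave these falls out, and whether their promoters hold CACGTG is unknown here. A match is a description of these letters and shows no binding.

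In the V0 sector, ATP6V0E1 fell deepest of the 37 genes. ATP6V0E1, a small subunit of the membrane sector, stood at 0.02, -0.01 and -0.32 on the untreated arrays, 0.24, -0.01 and 0.00 on the bare particle arrays and -2.76, -2.77 and -1.76 on the conjugate arrays. The conjugate arrays lay below all others. The change against untreated cells was -2.32 with an SE of 0.26, or 5.01-fold lower (limma adjusted p = 8.34e-04), and all 4 of its probe sets fell, with changes of -3.56 to -1.69. After level centring it was -1.95 (limma adjusted p = 3.49e-04).

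ATP6V0D1, which links the V0 rotor to V1, was at -0.22, 0.04 and 0.36 untreated, 0.03, 0.17 and 0.08 with bare particles and -1.09, -1.17 and -0.26 with the conjugate. The conjugate and untreated values came close, at -0.26 and -0.22, without overlap. It fell by 0.90 on the log2 scale with an SE of 0.25 (limma adjusted p = 0.0145), but 1 of its 7 probe sets rose by 1.39 while the other six fell. ATP6V0A1, whose product forms the proton path, rose. It was at -0.02, -0.12 and -0.17 untreated, -0.35, -0.26 and -0.12 with bare particles and 0.71, 0.64 and 0.11 with the conjugate, a change of 0.59 with an SE of 0.18 (limma adjusted p = 0.0223) and 0.46 after level centring. Of its 2 probe sets 1 rose.

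The proteolipid genes of the V0 rotor did not pass. ATP6V0B changed by -0.44 (limma adjusted p = 0.205) and ATP6V0C by -0.52 (adjusted p = 0.0872), and level centring turned both to higher, 0.53 and 0.45. ATP6V0D1 had no call after level centring (-0.41), without conjugate replicate 1 (-0.78) or without untreated replicate 3 (-0.75). ATP6V0A1 had none without conjugate replicate 1 (0.48) or 2 (0.51) or untreated replicate 2 (0.58) or 3 (0.56).

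In the V1 sector 7 of 8 genes fell and none rose, with a median change of -1.65, against 25.1% lower and 33.1% higher over all genes. Quantile normalization left only ATP6V1B2 called among the 7 (-0.99, limma adjusted p = 0.0172), the others lying between -0.76 and -0.28. That setting called 1355 of 18132 genes lower. After level centring 6 of the 8 were lower and 1 higher. ATP6V1B2, a nucleotide-binding subunit of the ATP-splitting head, stood at 0.07, -0.10 and 0.42 untreated, 0.27, 0.22 and 0.15 with bare particles and -1.87, -2.32 and -1.21 with the conjugate. Its conjugate arrays lay below all others. It fell by 1.93 on the log2 scale, or 3.81-fold, with an SE of 0.26 (limma adjusted p = 0.00137), in all 3 probe sets, and by 1.33 after level centring.

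ATP6V1A, the catalytic subunit, was at -0.16, -0.35 and 0.16 untreated, -0.01, 0.24 and 0.06 with bare particles and -2.39, -2.82 and -1.31 with the conjugate. It fell by 2.05 on the log2 scale, or 4.15-fold, with an SE of 0.33 (limma adjusted p = 0.00233), in all 5 probe sets, and its weakest probe set stood at -0.77. After level centring ATP6V1A was at -1.53. ATP6V1C1, a stalk subunit that controls assembly of the sectors, was at -0.22, 0.01 and 0.23 untreated, -0.05, 0.07 and -0.14 with bare particles and -1.44, -1.95 and -0.95 with the conjugate. For both genes every conjugate array lay below every other array. The change of ATP6V1C1 was -1.45 with an SE of 0.24 (limma adjusted p = 0.00258), and 4 of its 5 probe sets fell. The dim one stood at 0.03. After level centring ATP6V1C1 was at -1.43.

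The other V1 genes followed with smaller or less even falls. The central stalk gene ATP6V1D changed by -1.66 (SE 0.28), the peripheral stalk genes ATP6V1E1 by -1.81 (SE 0.54) and ATP6V1G1 by -0.86 (SE 0.25), and the regulatory subunit gene ATP6V1H by -1.64 (SE 0.36). Level centring moved ATP6V1D to -1.05, ATP6V1E1 to -0.84 and ATP6V1H to -0.67, all still called. ATP6V1E1 had the widest spread of the sector, with -1.75, -3.18 and -0.38 on the conjugate arrays, and its call was lost without conjugate replicate 1 (-1.82) or untreated replicate 1 (-1.69). ATP6V1G1 lost its call without conjugate replicate 1 (-0.81), without untreated replicate 3 (-0.74) and after level centring (-0.40). ATP6V1F, a subunit of the central rotor, changed by 0.06 with an SE of 0.28 (limma adjusted p = 0.863), and by 1.03 after level centring (adjusted p = 0.00214).

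Among the membrane proteins 2 of 5 fell and none rose, with a median of -0.50, against 25.1% lower and 33.1% higher over all genes. After level centring 1 was lower and 1 higher. NPC1, which exports cholesterol from lysosomes, was at 0.06, -0.17 and -0.28 untreated, 0.07, -0.06 and -0.33 with bare particles and -0.78, -0.52 and -1.02 with the conjugate. It fell by 0.64 on the log2 scale with an SE of 0.19 (limma adjusted p = 0.017). Its 2 probe sets disagreed, at -1.84 and 0.56, and only the first passed. The call was lost after level centring (-0.27) and without untreated replicate 1 (-0.54).

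LAMP2, a heavily glycosylated protein of the lysosomal wall, was at -0.21, -0.13 and -0.16 untreated, 0.06, 0.07 and 0.03 with bare particles and -0.63, -0.78 and -0.49 with the conjugate. Its groups were tight and did not overlap. It fell by 0.47 on the log2 scale with an SE of 0.14 (limma adjusted p = 0.0194), and level centring left it at -0.47, but quantile normalization turned it to 0.06. Its call was lost without untreated replicate 2 (-0.45) or 3 (-0.47). Behind this mean lay 9 probe sets from -2.96 to 1.21, of which 3 fell and 1 rose.

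LAMP1, its close relative, did not pass. It was at -0.06, -0.28 and 0.26 untreated, 0.00, -0.01 and -0.04 with bare particles and -0.66, -0.82 and -0.08 with the conjugate, so that the groups overlapped (-0.50 with an SE of 0.22, limma adjusted p = 0.0717, and 0.11 after level centring). CD63, a tetraspanin of late endosomes, changed by -0.54 (adjusted p = 0.121) and by 0.43 after level centring, with a call (adjusted p = 0.0184). MCOLN1, the lysosomal calcium channel, changed by -0.19 (adjusted p = 0.346) and by 0.23 after level centring, with 1 probe set higher and 1 lower.

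Of the 7 hydrolases 3 rose and 3 fell, with a median of 0.32, against 33.1% higher and 25.1% lower over all genes. After level centring 2 were higher and 1 lower. GLA, the alpha-galactosidase that is deficient in Fabry disease, was at -0.34, -0.54 and -0.28 untreated, 0.40, 0.10 and 0.19 with bare particles and -1.38, -1.84 and -0.86 with the conjugate. Its bare particle arrays lay above all others and its conjugate arrays below all others. The conjugate change against untreated cells was -0.97 with an SE of 0.23 (limma adjusted p = 0.00866), and it was -0.03 with no call after level centring and 0.20 after quantile normalization.

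HEXA, the hexosaminidase subunit that is deficient in Tay-Sachs disease, rose. It was at -0.05, -0.06 and -0.05 untreated, 0.00, -0.06 and -0.03 with bare particles and 0.62, 0.43 and 0.48 with the conjugate. The conjugate arrays lay above all others, and the change was 0.56 with an SE of 0.14 (limma adjusted p = 0.00872) and 0.84 after level centring. Of its 8 probe sets 4 rose, all of the middle class, by 0.75 to 2.45, and the others, of which 3 were bright, ranged from -0.88 to 0.29 without a call.

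CTSA, a carboxypeptidase that protects other lysosomal enzymes, was at -0.19, -0.18 and 0.26 untreated, -0.07, -0.19 and -0.07 with bare particles and 0.59, 0.72 and 0.47 with the conjugate. It rose by 0.63 with an SE of 0.17 (limma adjusted p = 0.0127) and by 1.05 after level centring, while 1 of its 2 probe sets stood at 0.02. Its call was lost without untreated replicate 2 (0.56). CTSD, the main aspartic protease of lysosomes, was at 0.16, 0.05 and -0.16 untreated, -0.51, -0.52 and -0.20 with bare particles and 0.47, 0.30 and 0.25 with the conjugate. The conjugate arrays lay above the untreated ones, but the change of 0.32 did not pass (SE 0.16, limma adjusted p = 0.107), nor did that of 0.19 after level centring.

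The remaining hydrolases depended on single arrays. The cysteine protease gene CTSB changed by -1.06 (SE 0.35, limma adjusted p = 0.0279), with values from -1.52 to -0.64 when 1 array was left out. It had no call without any 1 of untreated replicates 1, 2 and 3 (-1.08, -1.07 and -1.01) or of conjugate replicates 1 and 2 (-1.01 and -0.64). Nor had CTSB a call after level centring (-0.64, adjusted p = 0.0564) or quantile normalization (-0.17). CTSL, another cysteine protease, changed by -1.70 (SE 0.46, adjusted p = 0.0133) in its 1 probe set, where the conjugate arrays lay at -1.98, -2.26 and -0.15 and the lowest untreated array at -0.15. Its call was lost without conjugate replicate 1 (-1.44), and level centring moved it to -0.73. GAA, the glucosidase that breaks down lysosomal glycogen, rose by 0.54 (SE 0.18, adjusted p = 0.0266), but not without conjugate replicate 2 (0.51), untreated replicate 1 (0.55) or 3 (0.41), and not after level centring (0.40).

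Among the 12 autophagy genes 6 fell and 2 rose, with a median of -0.55, against 25.1% lower and 33.1% higher over all genes. Both rises were in regulators. After level centring 4 of the 12 were lower and 2 higher. ULK1, the kinase that starts autophagy, was at -0.05, 0.01 and -0.18 untreated, -0.43, -0.31 and -0.22 with bare particles and 1.31, 1.35 and 0.62 with the conjugate. Its conjugate arrays lay above all others. It rose 2.24-fold, by 1.17 on the log2 scale with an SE of 0.21 (limma adjusted p = 0.00303), in its 1 probe set, and by 1.03 after level centring.

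TFEB, the regulator of lysosomal genes, was at -0.06, -0.01 and -0.44 untreated, -0.35, -0.19 and -0.19 with bare particles and 0.71, 0.62 and 0.27 with the conjugate. The conjugate arrays lay above all others, and both probe sets rose. The change was 0.71 with an SE of 0.18 (limma adjusted p = 0.0109), and after level centring 0.41 (adjusted p = 0.0498). TFEB had no call with group weights (adjusted p = 0.062) or quantile normalization (0.66, adjusted p = 0.115).

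The genes of the membrane conjugation machinery fell or did not pass. MAP1LC3B, which codes for the LC3B protein that marks autophagosomes, was at -0.58, -0.45 and 0.12 untreated, -0.05, -0.09 and 0.00 with bare particles and -1.50, -1.91 and -1.04 with the conjugate. It fell by 1.18 on the log2 scale, or 2.26-fold, with an SE of 0.25 (limma adjusted p = 0.00538), in 3 of 4 probe sets. Level centring moved MAP1LC3B to -0.51 (adjusted p = 0.0428). It had no call in its only more specific probe set (-0.30, adjusted p = 0.384) or with quantile normalization (-0.15). ATG3, the E2-like enzyme that attaches LC3 to lipid, was at -0.21, -0.26 and 0.01 untreated, 0.18, 0.25 and 0.18 with bare particles and -1.95, -2.14 and -0.69 with the conjugate. In both genes the conjugate arrays lay below all others. ATG3 fell by 1.44 on the log2 scale with an SE of 0.32 (limma adjusted p = 0.00672), in 5 of 6 probe sets, and level centring moved it to -0.47.

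ATG5, which joins ATG12 in the E3-like complex, changed by -1.08 (SE 0.32, limma adjusted p = 0.0188) in all 3 probe sets, and by -1.21 after level centring. It had no call without conjugate replicate 1 (-0.95) or 2 (-0.76) or without untreated replicate 1 (-1.01) or 3 (-1.07). ATG12 fell by 0.65 on the log2 scale (adjusted p = 0.0152), but as the mean of 2 bright probe sets at -2.41 and 1.12 that were called in opposite directions. Its call was lost without conjugate replicate 1 (-0.57), and level centring turned it to 0.33. ATG16L1, the third part of that complex, changed by 0.31 (adjusted p = 0.127), and ATG7, the E1-like enzyme, by -0.10 (adjusted p = 0.58). After level centring ATG16L1 was at 0.0084 and ATG7 at -0.24.

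BECN1, which codes for Beclin 1, fell by 0.83 on the log2 scale (SE 0.24, limma adjusted p = 0.0162). Of its 6 probe sets 5 fell, with changes of -2.22 to -0.90, and 1 bright probe set rose by 2.11. Its call was lost without conjugate replicate 1 (-0.78) or untreated replicate 3 (-0.77), and level centring left -0.05. WIPI1, a phosphoinositide-binding protein of early autophagosomes, changed by -0.92 (SE 0.32, adjusted p = 0.0321) and by -1.06 after level centring, with conjugate replicate 2 at -0.18 inside the untreated range of -0.34 to 0.35. It had no call without conjugate replicate 1 (-0.66) or 3 (-0.79) or untreated replicate 1 (-0.73) or 2 (-0.97).

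SQSTM1, the receptor p62 that carries cargo into autophagosomes, did not pass against untreated cells. It was at -0.06, -0.33 and -0.70 untreated, -0.09, -0.14 and -0.18 with bare particles and -0.95, -1.33 and -0.19 with the conjugate, so that conjugate replicate 3 lay among the untreated arrays (change -0.46, SE 0.28, limma adjusted p = 0.166). Its change was 0.070 after level centring. GABARAPL1, of the LC3 and GABARAP family, changed by 0.30 (adjusted p = 0.0803) and by 0.082 after level centring, with 2 probe sets higher and 1 lower.

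Probe sets of 1 gene often parted. Over the 127 probe sets 63 fell and 17 rose, where 23.7% of all probe sets fell and 24.9% rose. In 6 genes, ATP6V0D1, LAMP2, MCOLN1, BECN1, ATG12 and GABARAPL1, probe sets passed in both directions. Of the 63 that fell 35 were bright, 22 middle and none dim, and of the 17 that rose 3 were bright, 11 middle and 3 dim. The plot of probe sets shows that the 3 bright rises belonged to ATP6V0D1, BECN1 and ATG12, genes whose other bright probe sets fell. Where probe sets with an x or s in their suffix, which mark shared sequence, were left out of genes that had others, BECN1 turned to 0.60 and ATG12 to 1.12, both called higher by limma. GABARAPL1 was then also called higher (1.15, limma adjusted p = 0.00177), and ATP6V0D1 (-0.39) and MAP1LC3B (-0.30) had no call. The value of BECN1 was then the mean of probe sets at -0.90 and 2.11, called in opposite directions. Those of ATG12 and MAP1LC3B came from the only probe set left of each gene.

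**Figure D3:**
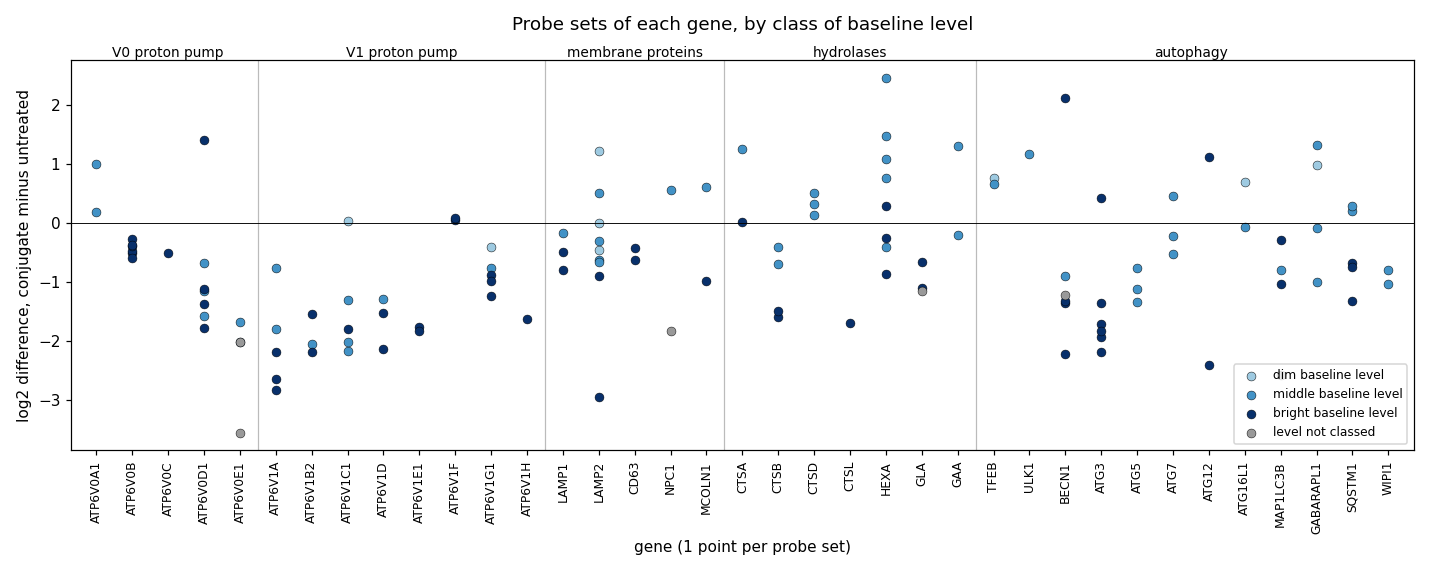
Log2 difference between conjugate and untreated arrays (vertical axis) for each probe set of the 37 genes (horizontal axis), with colour for the class of baseline level. Bright probe sets lie mostly below 0, with a median of -1.07, and HEXA spans -0.88 to 2.45.

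Bare gold particles gave no call in these genes. Against untreated cells limma called none of the 37 genes, at 0.0221% called higher and 0.0% lower over all genes, and the median change was 0.03, against -0.06 over all genes. At an unadjusted p under 0.05 there were 2, GLA and CTSD, and 972 among all genes. A fit with a weight for each group called GLA higher, and quantile normalization called GLA, LAMP2 and CTSB higher and CTSD and ATG12 lower. Over all 18132 genes quantile normalization called 1263 higher and 1517 lower. The change was 0.62 for GLA (SE 0.23, limma adjusted p = 0.864) and -0.42 for CTSD (SE 0.16, adjusted p = 0.864), in the same direction in all 3 probe sets of each gene.

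The 3 bare particle values of 5 genes lay above all untreated values, and those of 3 genes lay below, as the plot of bare particle changes shows. Over all genes this held for 12.4% and 21.5%. The 5 were ATP6V1H (0.18), LAMP2 (0.22), CTSB (0.25), GLA and ATG3 (0.36), and the 3 were CTSD, ULK1 (-0.25) and ATG12 (-0.30). The pump genes changed by -0.21 for ATP6V0C to 0.21 for ATP6V1A, and TFEB by -0.07. The SE of these differences ran from 0.14 to 0.54, so changes of this size were not detectable in this fit. That SE pools the spread of all groups, the conjugate arrays included. The median SD of these genes was 0.505 with the conjugate, 0.163 untreated and 0.0852 with bare particles. A fit of the bare particle and untreated arrays alone called none of these genes either.

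**Figure D4:**
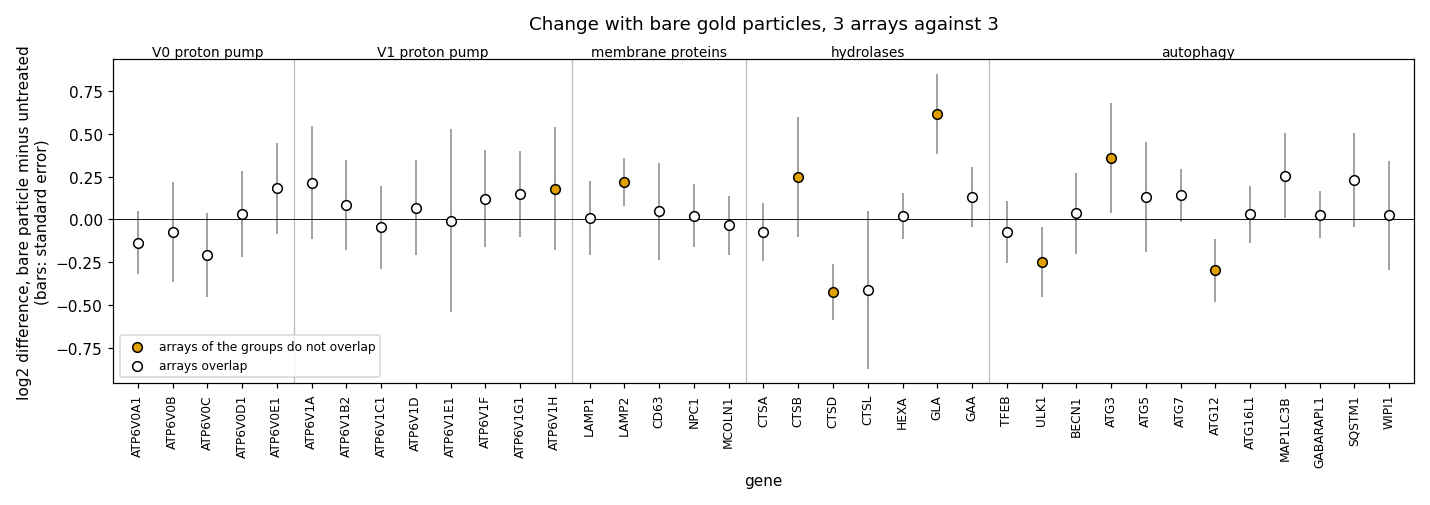
Log2 difference between bare particle and untreated arrays (vertical axis, bars are the standard error, 3 arrays against 3) for each gene (horizontal axis); filled points are genes whose 3 values in one group lie apart from those in the other. GLA at 0.62 and CTSD at -0.42 lie farthest from 0.

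The conjugate was also compared with bare particles, which leaves the gold in both groups and shares the conjugate arrays with the comparison above. Again 20 of the 37 genes fell and 6 rose, where 29.1% of all genes were called lower and 43.2% higher, and the median was -0.69 against 0.30. By probe set 74 fell and 22 rose, against 28.3% and 36.3% of all. The bare particle arrays were the tightest group, with a median SD of these genes of 0.0852, against 0.163 untreated and 0.505 with the conjugate, and 23 of the 26 calls were made whichever 1 array was left out.

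The deepest changes against bare particles were those of ATP6V0E1 (-2.51, SE 0.26, limma adjusted p = 2.82e-04), ATP6V1A (-2.27, SE 0.33) and ATP6V1B2 (-2.02, SE 0.26), beside -2.32, -2.05 and -1.93 against untreated cells. After level centring these were -2.12, -1.71 and -1.38. ULK1 rose by 1.41 (SE 0.21, adjusted p = 8.33e-04), or 2.66-fold, and TFEB by 0.78 (SE 0.18, adjusted p = 0.00463), and by 1.27 and 0.44 after level centring. GLA fell by 1.59 on the log2 scale, or 3.01-fold, with an SE of 0.23 (adjusted p = 8.57e-04), and stayed called after level centring at -0.61. CTSD, not called against untreated cells, rose by 0.75 (SE 0.16, adjusted p = 0.00345) in all 3 probe sets, and by 0.61 after level centring.

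Other calls of this comparison rested on little. SQSTM1 changed by -0.69 (SE 0.28, limma adjusted p = 0.0448), lost its call after level centring (-0.13) and turned to 0.34 in its only more specific probe set. GAA (0.41, adjusted p = 0.0586) and ATG12 (-0.35, adjusted p = 0.106) did not pass here. After level centring 14 genes were lower and 11 higher, where 4869 of all 18132 genes were lower and 5786 higher. Newly called higher were ATP6V0B (0.65), ATP6V0C (0.70), ATP6V1F (0.95), CD63 (0.43) and ATG12 (0.67). Besides SQSTM1, the calls of ATP6V0D1 (-0.41), ATP6V1E1 (-0.78), NPC1 (-0.28), CTSL (-0.27) and BECN1 (-0.056) were lost.

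Other genes of the same pathways were grouped in lists by function, and their counts are to be read against the 25.1% of all genes that fell and the 33.1% that rose. Of 13 other pump genes 4 fell and 3 rose against untreated cells. ATP6AP2, an accessory protein needed to assemble the pump, fell by 1.85 on the log2 scale with an SE of 0.28 (limma adjusted p = 0.002), and DMXL1, of the complex that joins V1 to V0, changed by -0.81. ATP6V0E2, the paralog of ATP6V0E1, rose by 0.82 with an SE of 0.17 and TCIRG1, a paralog of ATP6V0A1, by 0.97 with an SE of 0.25. Level centring left these 4 called, at -1.77, -0.60, 1.05 and 0.83.

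Of 33 other hydrolase and lumen genes 7 rose and 7 fell, the beta-galactosidase GLB1 (-2.18) and the thioesterase PPT1 (-1.28) among the falls and the peptidase DPP7 (0.71) and the iduronidase IDUA (0.63) among the rises. Level centring moved GLB1 to -1.21, PPT1 to -0.68, DPP7 to 0.57 and IDUA to 0.49. Of 20 other lysosomal membrane genes 5 rose and 6 fell, with the channels TPCN2 (0.85) and TMEM175 (0.996) higher and the amino acid sensor SLC38A9 (-1.09) and LAPTM4A (-1.49) lower. Level centring moved SLC38A9 to -0.49, LAPTM4A to -0.75, TPCN2 to 1.08 and TMEM175 to 0.86. Of 31 other autophagy genes 6 rose and 10 fell. PIK3C3, the lipid kinase that works with Beclin 1, fell by 3.27 on the log2 scale with an SE of 0.41 (limma adjusted p = 0.001) in its 1 probe set. The LC3-processing protease ATG4C changed by -1.58, while the lipid scramblase ATG9A rose by 1.19 and MAP1LC3C by 1.09. Level centring moved PIK3C3 to -2.30, ATG4C to -1.72, ATG9A to 1.05 and MAP1LC3C to 0.96.

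Of 21 sorting and regulator genes 11 fell and 2 rose, with a median of -0.66. The 2 falls with the smallest adjusted p were of Rag GTPases, which dock mTORC1 on the lysosome. RRAGA changed by -2.66 (SE 0.44) in its 1 probe set and RRAGC by -2.45 (SE 0.24). They stayed called after level centring at -1.69 and -1.78. RRAGB and RRAGD were in the list too, and their values are not given here. MITF, of the same factor family as TFEB, rose by 0.65 and NAGPA, which uncovers the mannose 6-phosphate sorting signal, by 0.67, and neither was called after level centring (0.51 and 0.37). None of the genes in these 5 lists was called by limma with bare particles.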

How the data were processed

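Total RNA of 9 samples was labelled with biotin and hybridized, per the labels. The deposited series matrix holds 49395 probe sets, of which 102 array controls were left out. The deposited values were read as log2 against a baseline of their own for every probe set, inferred from exact zeros on at least 1 array in 59.7% of probe sets. Base and summary method: not given in the sources used here. Annotation gave 44988 probe sets 1 symbol, 1832 several and 2473 none. The number of arrays limits the precision.

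Gene values were means over probe sets with 1 symbol. All 9 arrays entered one limma 3.58.1 fit (lmFit, eBayes, 2-sided, R 4.3.3), and p-values were adjusted over all genes or probe sets. The 3 comparisons share arrays. Level classes (baseline 2 to 4 dim, 4 to 8 middle, 8 to 16 bright) were read from the binary step of the stored numbers, and level centring subtracted each array's median within a class. The class step and the fit were tested on simulated data. Tables and figures used Python 3.11.15.

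All members were named. Values by array were given for the 3 genes of each role group with the smallest adjusted p against untreated cells and for TFEB, SQSTM1, MAP1LC3B, LAMP1 and CTSD, and 2 rises and 2 falls of each other list were named by adjusted p. Members and lists were chosen with earlier results of these data known. Same-numbered conjugate and untreated arrays deviated together weakly (r of 0.156, 0.107 and 0.29 over genes). Arrays with different numbers were not compared, so pairing was not shown. The main fit held no replicate term, and a fit with the replicate block called the same 20 falls and 6 rises.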

Additional observations from a re-analysis of the deposited data

How the results depend on the processing

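Against untreated cells, the 37 genes gave 20 falls and 6 rises as deposited. A fit of the 2 groups alone gave 12 and 3, group weights 17 and 1, quantile normalization 2 and 2, and level centring 13 and 9, and leaving out 1 array gave 11 to 25 falls and 4 to 8 rises. For probe sets (63 falls and 17 rises) these were 36 and 11 with the 2 groups alone, 11 and 5 with quantile normalization, 27 rises with level centring, and 35 to 83 falls and 11 to 22 rises without 1 array, the fewest falls without untreated replicate 3 (35), conjugate replicate 1 (36) and untreated replicate 2 (39). Of 18132 genes in all, quantile normalization called 1355 lower and 572 higher, and level centring 4014 lower and 4376 higher. The median of the 37 genes (-0.64) was -0.052 with level centring, -0.15 with quantile normalization and -0.82 to -0.53 without 1 array. Without the third untreated and conjugate arrays, a setting chosen after seeing the data, there were 25 falls and 5 rises. For bare particles, group weights gave 1 gene higher and 1 probe set in each direction, quantile normalization 3 genes and 8 probe sets higher and 2 genes and 4 probe sets lower, and the setting without the third arrays 3 probe sets higher. Of 18132 genes in all, quantile normalization called 1263 higher and 1517 lower with bare particles. The median of the 37 genes was 0.21 with quantile normalization, 0.062 without the third arrays and 0.015 to 0.096 without 1 array. Against bare particles, level centring gave 11 rises and quantile normalization 13 falls (47 among probe sets), with medians of -0.27 and -0.29. Of all 18132 genes, level centring called 5786 higher in this comparison and quantile normalization 4197 lower. Among genes called in either setting, signs turned under level centring for ATP6V0B (0.53 against untreated cells, 0.65 against bare particles), ATP6V0C (0.45, 0.70), CD63 (0.43, 0.43), ATG12 (0.33, 0.67) and ATP6V1F (0.95 against bare particles), under quantile normalization for LAMP2 (0.061) and GLA (0.20) against untreated cells, and with specific probe sets for BECN1 (0.60, 0.66), ATG12 (1.12, 1.80) and SQSTM1 (0.34 against bare particles). Specific probe sets left ATG12 and SQSTM1 with 1 probe set each, and BECN1 with a falling and a rising one. Same-numbered conjugate and bare particle arrays had r of -0.0565 to 0.103 over genes. Against bare particles the replicate block gave 20 falls and 6 rises, losing SQSTM1 and gaining LAMP1. It changed no call of the 37 genes in the other comparisons. The causes of these changes were not tested. Trend and robust settings, median centring, the median of probe sets and leaving out dim probe sets kept each count of calls within 1.5 times.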
